A study of Mus musculus with 21 samples.

Results

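Sterol and fatty acid synthesis genes were followed in tail keratinocytes, the cells of the epidermis, of mice with basal cell carcinoma (BCC) and of tumour-free control mice (Con). The members were chosen by name: 35 of the 23713 genes in the table. Of these, 19 encode enzymes of sterol synthesis, counting Ggps1, which makes geranylgeranyl diphosphate used to modify proteins. The 10 fatty acid genes encode proteins that make, elongate or desaturate fatty acids or supply cytosolic acetyl-CoA and NADPH (Acly, Acss2 and Me1). The other 6 regulate these pathways or move and esterify sterols. All 35 had counts above 0 in every library and all 35 were tested in every model. The labels name 3 models, SmoM2, Gnas-eKO and PKI, each with 3 Con and 4 BCC libraries, taken 29, 42 and 57 days after tumour induction in that order. SmoM2 is the name of an activated form of the Hedgehog receptor protein Smoothened and Gnas is the gene of a G protein subunit that stimulates cAMP synthesis, while the labels spell out neither eKO nor PKI and give no Cre, promoter, strain, sex, age or construct for any group, controls included. Each model was also a batch of its own (A, B or C), so model, batch and day cannot be told apart, and Con and BCC were compared within a batch. The headers give the SmoM2 BCC animals a different name prefix from the SmoM2 Con animals, without saying what the prefix marks, and it cannot be told apart from the tumour there.

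Cells build cholesterol from acetyl-CoA through mevalonate, isoprenoid diphosphates, squalene and lanosterol, and build fatty acids from the same acetyl-CoA through malonyl-CoA. The SREBP transcription factors, held in the endoplasmic reticulum by SCAP and INSIG proteins when sterols are plentiful, turn on many of these genes when they are released. In skin these lipids feed the barrier of the epidermis and the sebum of sebaceous glands, and cholesterol also binds Smoothened and is attached to Hedgehog proteins.

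The promoters of 8 members are shown because one short sequence stood in nearly all the sterol enzyme promoters matched. RefSeq windows of build GRCm38.p6, from 250 bases before to 50 bases after each start, were matched for 28 of the 35 members by symbol. CCAAT, the core letters bound by the factor NF-Y, stood on either strand in 15 of the 16 sterol enzymes with a window (93.8%), in 4 of the 7 fatty acid genes (57.1%) and in 4 of the 5 regulators (80.0%), against 41.1% of 27025 genes. Among members with a window, it stood in 14 of the 15 that were lower in PKI and in 8 of the 11 that were not called there. Of the 2 that were higher in PKI it stood in 1, Ebp. These classes differ in how many sterol enzymes they hold, and their shares were not tested against each other. The sterol regulatory element written as TCACNCCAC, searched on both strands, stood in Hmgcs1 alone and in 1.44% of all genes. A match is a description of the letters, not of binding. Each line gives the 150 bases before the RefSeq start, 5′ to 3′ on the strand of the gene, with CCAAT, its reverse complement ATTGG and the TCACNCCAC match in capitals. The RefSeq start is not always the start of the deposited gene model: the stretches of Msmo1 and Fads2 lie inside those models, and those of Idi1, Lss and Acss2 run into them. Fads2, the member with the highest fold change, is shown as one without either set of letters in this stretch.
Hmgcs1 (chr13:119690201-119690350, plus strand): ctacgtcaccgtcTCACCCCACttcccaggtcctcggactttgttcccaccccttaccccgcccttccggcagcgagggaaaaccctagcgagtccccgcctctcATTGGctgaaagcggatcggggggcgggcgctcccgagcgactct
Idi1 (chr13:8885456-8885605, plus strand): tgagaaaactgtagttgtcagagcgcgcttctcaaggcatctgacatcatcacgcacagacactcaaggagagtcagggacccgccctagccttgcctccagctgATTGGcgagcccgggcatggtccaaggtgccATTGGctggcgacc
Mvd (chr8:122443423-122443572, minus strand): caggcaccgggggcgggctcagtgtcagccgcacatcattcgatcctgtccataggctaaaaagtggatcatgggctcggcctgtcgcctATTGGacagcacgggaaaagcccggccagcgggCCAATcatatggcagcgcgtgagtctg
Lss (chr10:76531455-76531604, plus strand): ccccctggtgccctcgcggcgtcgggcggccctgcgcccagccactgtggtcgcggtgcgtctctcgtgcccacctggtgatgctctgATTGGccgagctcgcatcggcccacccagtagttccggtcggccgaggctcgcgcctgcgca
Msmo1 (chr8:64733579-64733728, minus strand): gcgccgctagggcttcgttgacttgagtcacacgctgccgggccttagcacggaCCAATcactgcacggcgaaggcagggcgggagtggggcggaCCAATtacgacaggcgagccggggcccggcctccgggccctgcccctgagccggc
Acss2 (chr2:155517893-155518042, plus strand): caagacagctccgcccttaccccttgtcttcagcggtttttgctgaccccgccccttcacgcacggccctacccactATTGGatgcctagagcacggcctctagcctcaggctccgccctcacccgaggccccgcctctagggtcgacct
Fasn (chr11:120824548-120824697, minus strand): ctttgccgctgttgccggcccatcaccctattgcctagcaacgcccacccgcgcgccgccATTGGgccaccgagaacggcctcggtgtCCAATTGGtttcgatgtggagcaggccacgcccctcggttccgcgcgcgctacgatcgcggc
Fads2 (chr19:10101504-10101653, minus strand): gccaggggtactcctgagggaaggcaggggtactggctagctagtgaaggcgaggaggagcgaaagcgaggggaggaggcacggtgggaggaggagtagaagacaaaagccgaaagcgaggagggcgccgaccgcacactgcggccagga

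The libraries held 16645858 to 22251132 counts, and levels are given as CPM, counts scaled to library size, here on sizes adjusted by TMM. The basal keratinocyte keratin Krt5 was at 7634 CPM or more in every library. The 5 basal keratinocyte markers, Krt5 among them, summed to 28983 to 37677 CPM in SmoM2 Con and 21293 to 23263 CPM in SmoM2 BCC, where 4 fell and 1 rose, to 34602 to 37343 and 14452 to 31261 CPM in Gnas-eKO, none called, and to 32271 to 36918 and 28095 to 30572 CPM in PKI, where 2 fell. Of all genes, 13.5% fell and 16.2% rose in SmoM2 and 15.8% fell in PKI. The keratin Krt14 ranged over 10755 to 14740.2 CPM in SmoM2 Con and 5368 to 6069 CPM in SmoM2 BCC. Gnas ranged over 172 to 178 CPM in Gnas-eKO Con and 51.1 to 115 CPM in Gnas-eKO BCC. The Hedgehog target Ptch1 was at 42.9 CPM or less in all Con libraries and at 209 CPM or more in all BCC libraries. Another Hedgehog target, Gli1, was at 9.65 CPM in Gnas-eKO BCC library 2, against 153 to 281 CPM in the other Gnas-eKO BCC libraries, so results of that model are also given without this library. In bulk tissue, fewer cells of a type and less RNA per cell cannot be told apart.

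In PKI the sterol enzymes were lower in tumours: 10 of 19 fell and 1 rose at an adjusted p under 0.05, here called lower or higher (edgeR's quasi-likelihood test, Benjamini-Hochberg adjustment over 16397 genes), where 15.8% of all genes tested fell, 18.7% rose and 34.5% did either. All but Ebp had a negative sign, and the median log2 fold change was -0.40, against -0.00 over all genes. Of the 10 fatty acid genes 3 fell and 2 rose, with a median of -0.41, and 3 of the 6 regulators and transfer genes fell. In SmoM2, 2 sterol enzymes rose (Idi1 and Ggps1) and 2 fell of 19, 3 fatty acid genes rose and 2 fell of 10, and 2 of the 6 others fell, where 16.2% of 16370 genes rose and 13.5% fell. The sterol share of 4 in 19 is below the 29.7% of all genes called in SmoM2, and the medians were -0.13 for sterol enzymes and -0.21 for fatty acid genes, against 0.00 over all genes. Without SmoM2 BCC library 3, 16 members were called in SmoM2, with Mvd (-0.51), Fdft1 (-0.46), Sc5d (-0.84), Acly (-0.30) and Acss2 (-0.46) added, where 26.6% of all genes were called. Without PKI BCC library 1, 24 members were called in PKI, with Fdps (-0.35), Fdft1 (-0.45), Cyp51 (-0.52), Nsdhl (-0.51), Elovl6 (-1.37) and Scd1 (-1.46) added and Hsd17b7 lost, where 29.6% of all genes were. Of the fits that left out 1 library these gave the most calls. The others gave 10 to 12 members in SmoM2 and 17 to 19 in PKI, and the share of all genes in them was not counted. In Gnas-eKO none of the 35 was called by edgeR, where 1.63% of 16409 genes were called. There 5 members had an unadjusted p under 0.05, against 19.6% of all genes, and DESeq2 called 2 members, Scd2 and Fads2, and 9.37% of all genes.

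**Figure D1:**
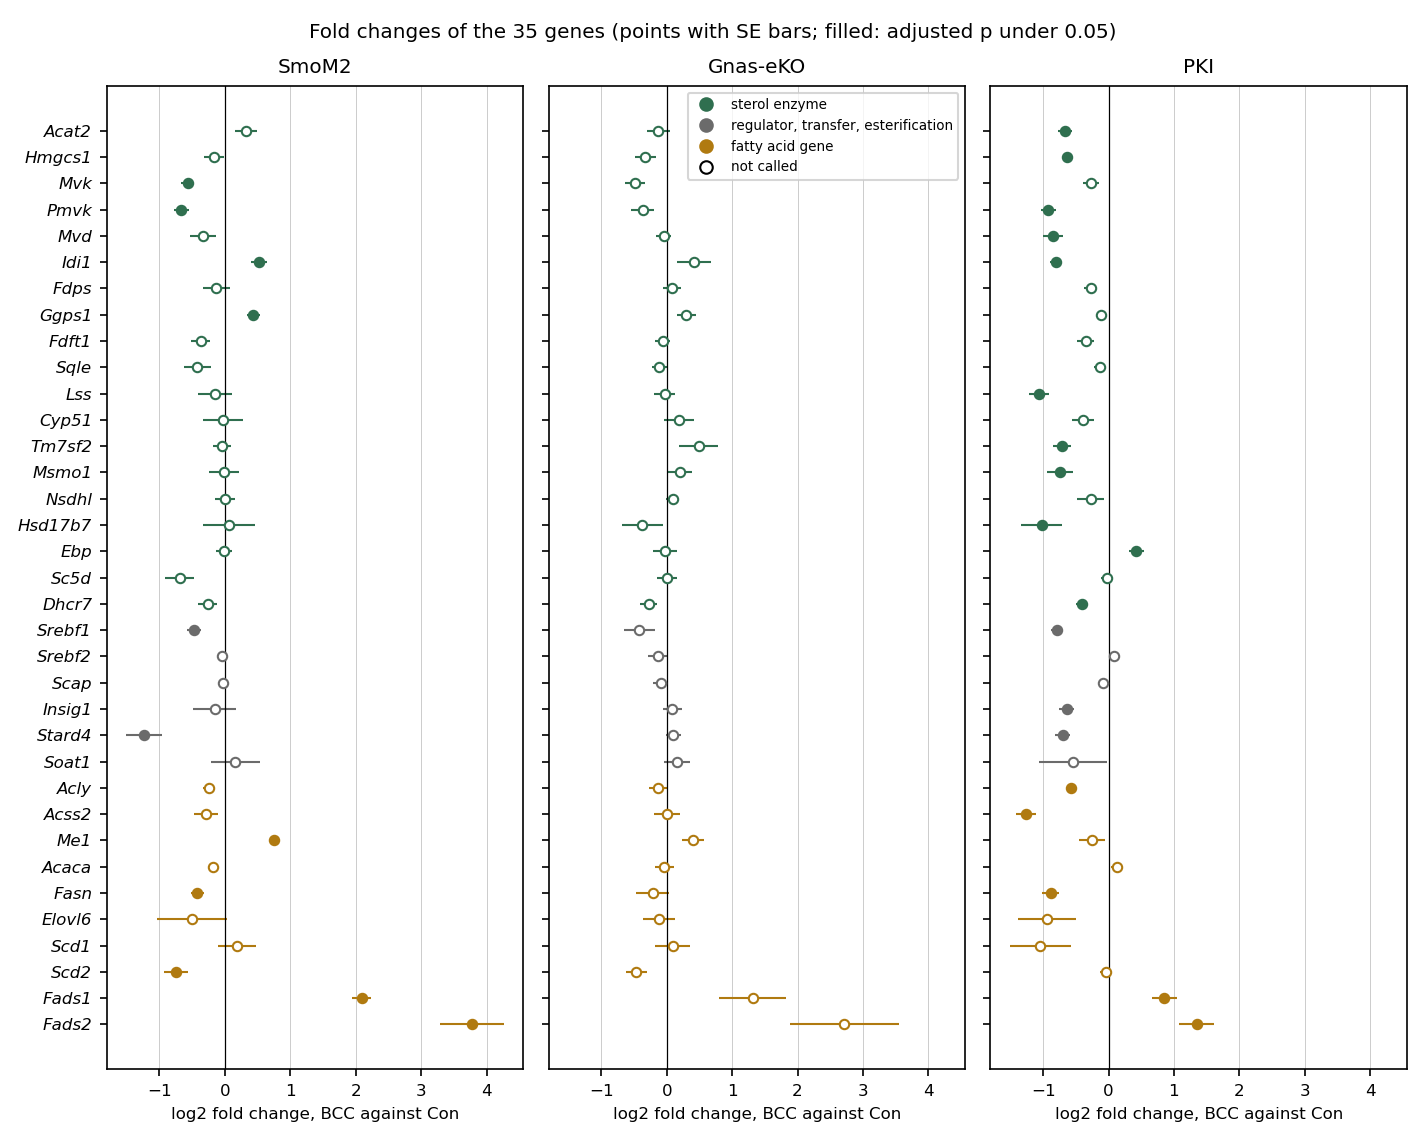
Log2 fold change of BCC over Con for the 35 genes in each model (x axis, points with SE bars), with genes on the y axis in pathway order. Filled points have an edgeR adjusted p under 0.05: 4 green sterol enzymes are filled in SmoM2 and 11 in PKI, 10 of those to the left of 0, and none of the 35 points is filled in Gnas-eKO.

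The first steps run from acetyl-CoA to isopentenyl diphosphate. Idi1, which isomerises isopentenyl diphosphate, was the single member called in opposite directions, higher in SmoM2 and lower in PKI. Idi1 was at 313, 311 and 265 CPM in SmoM2 Con libraries 1 to 3 and 495, 387, 454 and 345 CPM in BCC libraries 1 to 4. Idi1 measured 259, 359 and 339 CPM in Gnas-eKO Con libraries 1 to 3 and 344, 359, 649 and 336 CPM in BCC libraries 1 to 4. Idi1 reached 335, 354 and 356 CPM in PKI Con libraries 1 to 3 and 227, 199, 177 and 187 CPM in BCC libraries 1 to 4. For Idi1, every BCC value lay above every Con value in SmoM2, every BCC value lay below every Con value in PKI, and the groups overlapped in Gnas-eKO. Idi1 rose in SmoM2 by 0.52 ± 0.13 (SE, edgeR adjusted p = 0.0128) on the log2 scale and fell in PKI, -0.81 ± 0.09 (SE, edgeR adjusted p = 0.000402). Its call in SmoM2 was lost when all 21 libraries were fitted together (edgeR adjusted p = 0.0647). In Gnas-eKO library 3 alone stood high, and the change of 0.41 ± 0.26 (SE, edgeR adjusted p = 0.427) was not called. The BCC effect of Idi1 in PKI was lower than in SmoM2 by an interaction test over 14 libraries, -1.32 ± 0.16 (SE, edgeR adjusted p = 9.59e-05), and lower than in Gnas-eKO, -1.21 ± 0.29 (SE, edgeR adjusted p = 0.0213). The latter was called in 11 of the 14 fits that left out 1 library, with differences of -1.31 to -0.93, and was lost without Gnas-eKO Con library 1 and without PKI Con library 2 or 3. Of the 35 members 9 differed in this way between PKI and SmoM2, where 24.9% of all genes did, a like share: 8 had the lower effect in PKI and 1 the higher, against 12.3% and 12.6% of all genes. Over all alternatives 4 of the 9, Idi1, Ggps1, Acss2 and Me1, were called every time, and leaving out 1 library gave 7 to 13. Between PKI and Gnas-eKO 7 differed, where 9.06% of all genes did, and all 7 had the lower effect in PKI, against 4.57% of all genes. Leaving out 1 library moved this count to between 2 (without Gnas-eKO Con library 1) and 11 (without Gnas-eKO BCC library 3), and 0 of the 7 were called in every alternative. The shares of all genes given here are from the fits of all 14 libraries, and those with 1 library left out were not counted. None differed between Gnas-eKO and SmoM2, where 0.175% of all genes did. The largest difference there was that of Stard4, 1.34 ± 0.30 (SE, edgeR adjusted p = 0.107). It was called when all 21 libraries were fitted together (edgeR adjusted p = 0.0347).

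Acat2, the cytosolic thiolase that joins acetyl-CoA units, also fell in PKI. Acat2 was at 139.8, 138 and 108 CPM in SmoM2 Con libraries 1 to 3 and 149, 121, 201 and 165 CPM in BCC libraries 1 to 4. Acat2 measured 121, 123 and 164 CPM in Gnas-eKO Con libraries 1 to 3 and 98.5, 115, 150.4 and 131 CPM in BCC libraries 1 to 4. Acat2 reached 115, 127 and 133 CPM in PKI Con libraries 1 to 3 and 90.4, 81.8, 70.4 and 70.3 CPM in BCC libraries 1 to 4. For Acat2, every BCC value lay below every Con value in PKI, and the groups overlapped in SmoM2 and Gnas-eKO. It fell in PKI, -0.66 ± 0.11 (SE, edgeR adjusted p = 0.00176), was not called in SmoM2, 0.32 ± 0.17 (SE, edgeR adjusted p = 0.207), and the effects of PKI and SmoM2 differed by -0.98 ± 0.21 (SE, edgeR adjusted p = 0.00475). Pmvk, phosphomevalonate kinase, had the largest fall of these first steps and fell in both SmoM2 and PKI. Pmvk was at 72.6, 78.4 and 69.7 CPM in SmoM2 Con libraries 1 to 3 and 43.7, 36.6, 53.6 and 49.98 CPM in BCC libraries 1 to 4. Pmvk measured 72.98, 62.96 and 70.9 CPM in Gnas-eKO Con libraries 1 to 3 and 40.02, 52.4, 70.1 and 49.6 CPM in BCC libraries 1 to 4. Pmvk reached 64.4, 76.8 and 69.3 CPM in PKI Con libraries 1 to 3 and 39.9, 40.7, 31.7 and 34.7 CPM in BCC libraries 1 to 4. For Pmvk, every BCC value lay below every Con value in SmoM2 and PKI, and the groups overlapped in Gnas-eKO. Its log2 fold changes were -0.66 ± 0.12 (SE, edgeR adjusted p = 0.00274) in SmoM2 and -0.92 ± 0.11 (SE, edgeR adjusted p = 0.000479) in PKI. Mvk, the kinase one step before it, fell in SmoM2, -0.57 ± 0.10 (SE, edgeR adjusted p = 0.00201), with -0.48 in Gnas-eKO and -0.26 in PKI, neither called.

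Mvd, which decarboxylates mevalonate diphosphate, was called in PKI alone. Mvd was at 64.9, 70.2 and 66.8 CPM in SmoM2 Con libraries 1 to 3 and 49.1, 36.2, 70.97 and 54.6 CPM in BCC libraries 1 to 4. Mvd measured 53.3, 60.1 and 62.8 CPM in Gnas-eKO Con libraries 1 to 3 and 52.2, 61.9, 53.6 and 58.1 CPM in BCC libraries 1 to 4. Mvd reached 67.7, 69.5 and 58.6 CPM in PKI Con libraries 1 to 3 and 44.9, 38.5, 28.5 and 31.7 CPM in BCC libraries 1 to 4. For Mvd, every BCC value lay below every Con value in PKI, and the groups overlapped in SmoM2 and Gnas-eKO. Its change was -0.85 ± 0.15 (SE, edgeR adjusted p = 0.00294) in PKI and -0.34 ± 0.20 (SE, edgeR adjusted p = 0.246) in SmoM2. The PKI effect on Mvd differed from that in Gnas-eKO, -0.80 ± 0.20 (SE, edgeR adjusted p = 0.0263), called in 10 of the 14 fits that left out 1 library, with differences of -0.93 to -0.70, and lost without Con library 1 or 2 of either model. Its difference from SmoM2, -0.51 ± 0.27 (SE, edgeR adjusted p = 0.181), was not called. Hmgcs1 gave 759.9, 757 and 715 CPM in PKI Con libraries 1 to 3 and 544, 489, 442 and 435 CPM in BCC libraries 1 to 4. It fell in PKI, -0.63 ± 0.09 (SE, edgeR adjusted p = 0.00111), and was not called in SmoM2 (-0.16) or Gnas-eKO (-0.32).

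**Figure D2:**
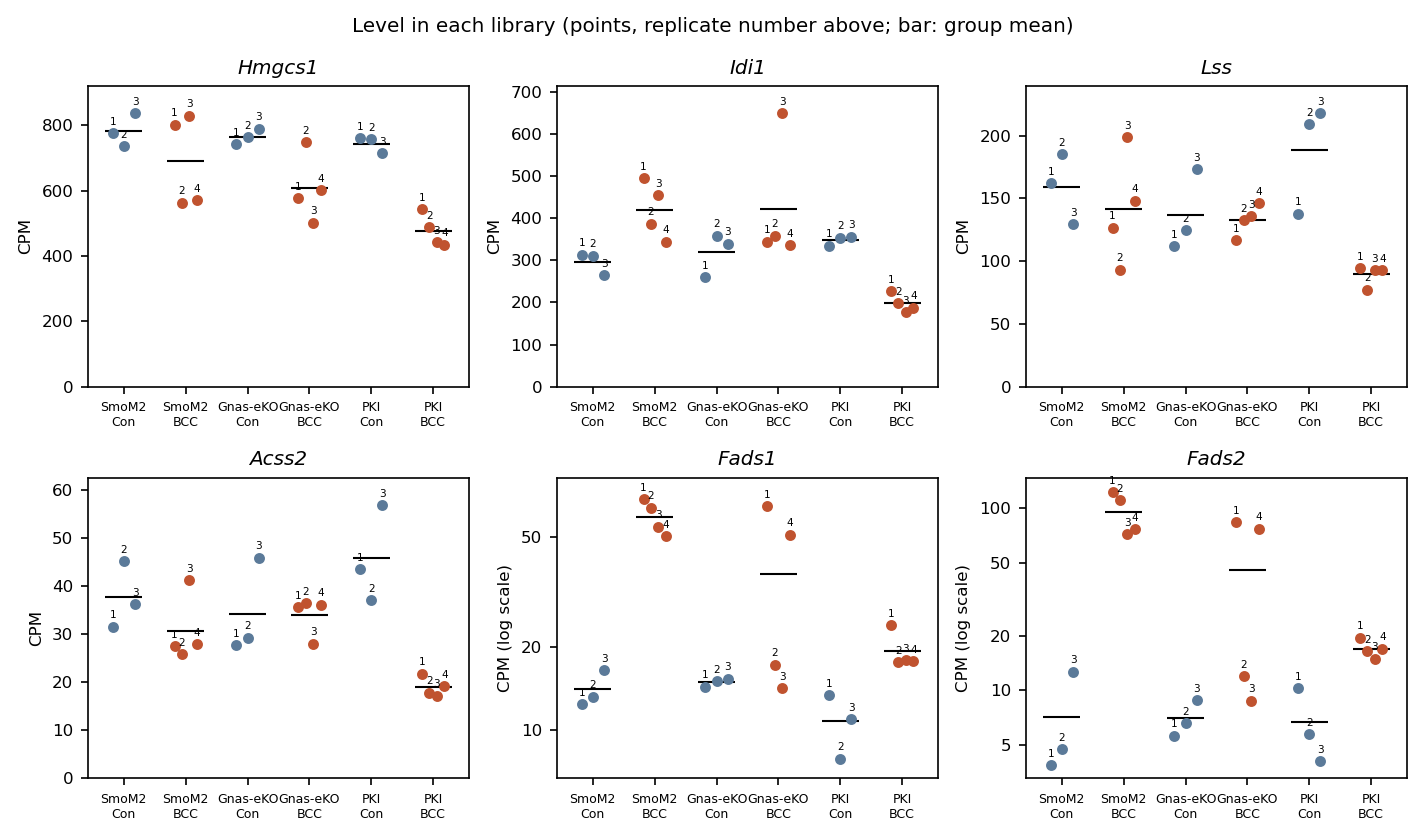
CPM of 6 members in each library (points, with the replicate number above), by model and group, with a bar at the group mean. The y axes of Fads1 and Fads2 are log scales. PKI BCC libraries lie below all PKI Con libraries for Hmgcs1, Idi1, Lss and Acss2 and above them for Fads1 and Fads2, and in Gnas-eKO BCC libraries 1 and 4 are high for both Fads genes.

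Prenyl diphosphates and squalene come next. Ggps1, which makes the geranylgeranyl diphosphate used to modify proteins, was the single called member of these steps. Ggps1 was at 26.3, 25.6 and 25.5 CPM in SmoM2 Con libraries 1 to 3 and 30.5, 31.5, 39.3 and 37.03 CPM in BCC libraries 1 to 4. Ggps1 measured 30.2, 22.5 and 30.4 CPM in Gnas-eKO Con libraries 1 to 3 and 34.5, 35.1, 30.1 and 35.6 CPM in BCC libraries 1 to 4. Ggps1 reached 37.9, 33.1 and 34.4 CPM in PKI Con libraries 1 to 3 and 30.9, 32.1, 34.3 and 31.3 CPM in BCC libraries 1 to 4. For Ggps1, every BCC value lay above every Con value in SmoM2, and the groups overlapped in Gnas-eKO and PKI. It rose in SmoM2, 0.44 ± 0.10 (SE, edgeR adjusted p = 0.011), and was not called in PKI, -0.12 ± 0.08 (SE, edgeR adjusted p = 0.306). The effects of PKI and SmoM2 on Ggps1 differed by -0.55 ± 0.13 (SE, edgeR adjusted p = 0.00716). Fdps and Fdft1, which make farnesyl diphosphate and squalene, had changes of -0.13, 0.08 and -0.27 and of -0.37, -0.06 and -0.35 in the order SmoM2, Gnas-eKO, PKI. None was called by edgeR with all libraries of that model and no covariate or replicate block. Both were called lower in PKI with Xist, described below, as a covariate. DESeq2 called Fdft1 lower in SmoM2 (-0.38, DESeq2 adjusted p = 0.0375) and in PKI (-0.36, DESeq2 adjusted p = 0.0374), as did the joint fit of all 21 libraries (-0.39 and -0.36). Ggps1 shares its locus with Arid4b, Fdft1 with Ctsb, Cyp51 with Akap9 and Srebf1 with Rai1, all on the other strand. Fdps shares its locus with Gm43738 on its own strand, and the strand setting of the counting is not stated.

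Squalene is oxidised by Sqle and closed to lanosterol by Lss, and in PKI Lss was called and Sqle was not. Lss was at 162, 185 and 129.5 CPM in SmoM2 Con libraries 1 to 3 and 127, 93.2, 198 and 148 CPM in BCC libraries 1 to 4. Lss measured 112, 125 and 173 CPM in Gnas-eKO Con libraries 1 to 3 and 116, 133, 136 and 146 CPM in BCC libraries 1 to 4. Lss reached 138, 209 and 218 CPM in PKI Con libraries 1 to 3 and 94.5, 77.3, 93.01 and 92.9 CPM in BCC libraries 1 to 4. For Lss, every BCC value lay below every Con value in PKI, and the groups overlapped in SmoM2 and Gnas-eKO. Lss fell in PKI, -1.06 ± 0.16 (SE, edgeR adjusted p = 0.00154), and the effect differed from that in Gnas-eKO, -1.03 ± 0.24 (SE, edgeR adjusted p = 0.0182). It was called in 10 of the 14 fits that left out 1 library, with differences of -1.23 to -0.90, and lost without Gnas-eKO Con library 1 or 2 and without PKI Con library 2 or 3. The difference from SmoM2 was -0.91 ± 0.32 (SE, edgeR adjusted p = 0.0575) and missed the threshold, which it passed in the joint fit. Sqle gave 171, 176 and 163 CPM in PKI Con libraries 1 to 3 and 172, 165, 139.9 and 138 CPM in BCC libraries 1 to 4, and its change of -0.13 ± 0.09 (SE, edgeR adjusted p = 0.305) was not called. The difference between Lss and Sqle was not tested.

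Of the 8 enzymes from lanosterol to cholesterol, 4 fell and 1 rose in PKI by edgeR, where 15.8% of all genes fell and 18.7% rose, and in SmoM2, where 29.7% of all genes were called, none was called by edgeR and Sc5d by DESeq2. Tm7sf2, a sterol reductase, was the least abundant of them. Tm7sf2 was at 10.8, 13.3 and 10.2 CPM in SmoM2 Con libraries 1 to 3 and 9.95, 11.4, 10.3 and 12.04 CPM in BCC libraries 1 to 4. Tm7sf2 measured 10.1, 10.7 and 12.2 CPM in Gnas-eKO Con libraries 1 to 3 and 11.4, 12.8, 25.3 and 11.7 CPM in BCC libraries 1 to 4. Tm7sf2 reached 11.2, 10.3 and 12.4 CPM in PKI Con libraries 1 to 3 and 7.39, 6.66, 6.10 and 7.35 CPM in BCC libraries 1 to 4. For Tm7sf2, every BCC value lay below every Con value in PKI, and the groups overlapped in SmoM2 and Gnas-eKO. It fell in PKI, -0.71 ± 0.14 (SE, edgeR adjusted p = 0.00447), and differed from SmoM2 by -0.66 ± 0.18 (SE, edgeR adjusted p = 0.018) and from Gnas-eKO by -1.19 ± 0.34 (SE, edgeR adjusted p = 0.0439). The difference from SmoM2 was lost in the joint fit and without PKI Con library 3. The difference from Gnas-eKO was called in 4 of the 14 fits that left out 1 library, with differences of -1.31 to -0.84, and was lost without any 1 Con library or any 1 PKI BCC library. The Gnas-eKO value includes library 3, which lies above all others. Tm7sf2 overlaps Vps51 on the same strand, and reads in the overlap cannot be assigned here.

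Hsd17b7, a ketosteroid reductase, had the largest fall of this stretch of the pathway. Hsd17b7 was at 142, 153 and 113 CPM in SmoM2 Con libraries 1 to 3 and 96.7, 80.7, 239 and 146 CPM in BCC libraries 1 to 4. Hsd17b7 measured 78.8, 100.4 and 171 CPM in Gnas-eKO Con libraries 1 to 3 and 67.8, 83.3, 72.5 and 134 CPM in BCC libraries 1 to 4. Hsd17b7 reached 93.5, 199.7 and 204 CPM in PKI Con libraries 1 to 3 and 65.5, 62.04, 98.7 and 97.98 CPM in BCC libraries 1 to 4. For Hsd17b7, the groups overlapped in SmoM2, Gnas-eKO and PKI. Its change in PKI was -1.02 ± 0.31 (SE, edgeR adjusted p = 0.0439). Of the 7 fits that left out 1 PKI library, the call was kept without Con library 1 and lost in the other 6, and it was also lost without the filter on low counts, with log2 fold changes of -1.31 to -0.84 over these 7 fits. Msmo1, the C4 methyl sterol oxidase, fell in PKI, -0.75 ± 0.20 (SE, edgeR adjusted p = 0.0213), a call lost without Con library 2, without Con library 3 and without BCC library 2. Dhcr7, which makes cholesterol from its last precursor, fell in PKI by a smaller amount, -0.40 ± 0.09 (SE, edgeR adjusted p = 0.00918). Ebp, the sterol isomerase, was the exception and rose in PKI, 0.42 ± 0.11 (SE, edgeR adjusted p = 0.0181), a call lost without Con library 1 and in the joint fit. Ebp gave 52.1, 68.6 and 63.2 CPM in PKI Con libraries 1 to 3 and 84.4, 89.7, 73.3 and 78.6 CPM in BCC libraries 1 to 4. Sc5d, a sterol desaturase, gave 51.8, 58.6 and 74.8 CPM in SmoM2 Con libraries 1 to 3 and 31.9, 26.8, 49.1 and 43.4 CPM in BCC libraries 1 to 4, and every BCC value lay below every Con value. Its change of -0.69 ± 0.22 (SE, edgeR adjusted p = 0.0532) missed the threshold, while DESeq2 (-0.70, DESeq2 adjusted p = 0.00403) and the joint fit (-0.71, edgeR adjusted p = 0.00522) called Sc5d lower in SmoM2. Cyp51, Nsdhl and Sc5d were not called in any model by edgeR with all libraries of that model and no replicate block, with changes from -0.69 (Sc5d in SmoM2) to 0.19 (Cyp51 in Gnas-eKO).

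Among the regulators, Srebf1, which encodes the SREBP that drives mainly fatty acid genes, fell in SmoM2 and in PKI. Srebf1 was at 347, 293 and 393 CPM in SmoM2 Con libraries 1 to 3 and 261, 239.6, 215 and 264 CPM in BCC libraries 1 to 4. Srebf1 measured 299.6, 367 and 324 CPM in Gnas-eKO Con libraries 1 to 3 and 248, 349, 162 and 221 CPM in BCC libraries 1 to 4. Srebf1 reached 346, 311 and 279 CPM in PKI Con libraries 1 to 3 and 163, 183, 176 and 197 CPM in BCC libraries 1 to 4. For Srebf1, every BCC value lay below every Con value in SmoM2 and PKI, and the groups overlapped in Gnas-eKO. The changes of Srebf1 were -0.48 ± 0.11 (SE, edgeR adjusted p = 0.00875) in SmoM2 and -0.78 ± 0.09 (SE, edgeR adjusted p = 0.000451) in PKI, and the interaction test of their difference was not called, -0.31 ± 0.15 (SE, edgeR adjusted p = 0.156). Srebf2, which drives mainly sterol genes, and Scap, the escort protein of both SREBPs, had changes between -0.14 and 0.08 over the 3 models, none called. These are mRNA levels and give no measure of SREBP cleavage. Insig1, itself an SREBP target, fell in PKI. Insig1 was at 75.7, 77.7 and 105 CPM in SmoM2 Con libraries 1 to 3 and 62.2, 44.9, 117 and 82.4 CPM in BCC libraries 1 to 4. Insig1 measured 65.7, 79.9 and 84.2 CPM in Gnas-eKO Con libraries 1 to 3 and 64.6, 83.04, 88.9 and 86.1 CPM in BCC libraries 1 to 4. Insig1 reached 93.3, 72.6 and 69.97 CPM in PKI Con libraries 1 to 3 and 55.4, 44.1, 50.2 and 50.4 CPM in BCC libraries 1 to 4. For Insig1, every BCC value lay below every Con value in PKI, and the groups overlapped in SmoM2 and Gnas-eKO. The change of Insig1 was -0.64 ± 0.11 (SE, edgeR adjusted p = 0.00299) in PKI, and differed from Gnas-eKO by -0.72 ± 0.19 (SE, edgeR adjusted p = 0.0324). This difference was called in 8 of the 14 fits that left out 1 library, with differences of -0.82 to -0.59. It was lost without Con library 1 or 2 of either model, without Gnas-eKO BCC library 4, without PKI BCC library 2 and in the joint fit.

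Stard4, which carries cholesterol between membranes, had the largest fall among the regulators and transfer genes. Stard4 was at 84.4, 103 and 154 CPM in SmoM2 Con libraries 1 to 3 and 38.8, 34.7, 57.3 and 60.00 CPM in BCC libraries 1 to 4. Stard4 measured 58.7, 70.6 and 67.6 CPM in Gnas-eKO Con libraries 1 to 3 and 70.1, 70.8, 76.03 and 62.1 CPM in BCC libraries 1 to 4. Stard4 reached 86.99, 99.4 and 73.9 CPM in PKI Con libraries 1 to 3 and 47.7, 51.4, 51.98 and 60.2 CPM in BCC libraries 1 to 4. For Stard4, every BCC value lay below every Con value in SmoM2 and PKI, and the groups overlapped in Gnas-eKO. The change was -1.24 ± 0.28 (SE, edgeR adjusted p = 0.0155) in SmoM2 and -0.70 ± 0.11 (SE, edgeR adjusted p = 0.00191) in PKI, and PKI differed from Gnas-eKO by -0.80 ± 0.16 (SE, edgeR adjusted p = 0.0109), a call kept with each library left out and lost in the joint fit. Con library 3 was the highest of the SmoM2 libraries for Stard4, and over the fits that left out a SmoM2 library the change ranged from -1.42 to -0.96 and stayed called. Soat1, which esterifies cholesterol, was not called in any model, and its PKI change of -0.54 ± 0.52 (SE, edgeR adjusted p = 0.47) had a wide error.

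Of the 3 genes for cytosolic acetyl-CoA and NADPH, 2 fell in PKI and 1 rose in SmoM2, where 15.8% of all genes fell in PKI and 16.2% rose in SmoM2. Acss2, which makes acetyl-CoA from acetate, had the deepest fall of all members in PKI. Acss2 was at 31.6, 45.3 and 36.3 CPM in SmoM2 Con libraries 1 to 3 and 27.5, 25.9, 41.3 and 27.9 CPM in BCC libraries 1 to 4. Acss2 measured 27.7, 29.3 and 45.98 CPM in Gnas-eKO Con libraries 1 to 3 and 35.7, 36.5, 28.03 and 36.2 CPM in BCC libraries 1 to 4. Acss2 reached 43.6, 37.1 and 57.00 CPM in PKI Con libraries 1 to 3 and 21.8, 17.9, 17.2 and 19.1 CPM in BCC libraries 1 to 4. For Acss2, every BCC value lay below every Con value in PKI, and the groups overlapped in SmoM2 and Gnas-eKO. Acss2 fell in PKI, -1.26 ± 0.15 (SE, edgeR adjusted p = 0.00046), and was called neither in SmoM2, -0.28 ± 0.18 (SE, edgeR adjusted p = 0.294), nor in Gnas-eKO, 0.00 ± 0.19 (SE, edgeR adjusted p = 0.999). PKI differed from SmoM2 by -0.98 ± 0.26 (SE, edgeR adjusted p = 0.0141) and from Gnas-eKO by -1.26 ± 0.26 (SE, edgeR adjusted p = 0.0116). Acly, which makes acetyl-CoA from citrate, fell in PKI, -0.57 ± 0.08 (SE, edgeR adjusted p = 0.000747), with 405, 381 and 378 CPM in PKI Con libraries 1 to 3 and 285, 244, 246 and 258 CPM in BCC libraries 1 to 4. In SmoM2 DESeq2 called Acly lower (-0.25, DESeq2 adjusted p = 0.0456) and edgeR did not. Me1, malic enzyme and a source of NADPH, went the other way in SmoM2. Me1 was at 130.4, 118 and 131 CPM in SmoM2 Con libraries 1 to 3 and 229.7, 198, 223 and 191 CPM in BCC libraries 1 to 4. Me1 measured 145, 163 and 122 CPM in Gnas-eKO Con libraries 1 to 3 and 214, 186, 145 and 206 CPM in BCC libraries 1 to 4. Me1 reached 203, 159 and 135 CPM in PKI Con libraries 1 to 3 and 180.1, 146, 109.6 and 115 CPM in BCC libraries 1 to 4. For Me1, every BCC value lay above every Con value in SmoM2, and the groups overlapped in Gnas-eKO and PKI. Me1 rose in SmoM2, 0.75 ± 0.08 (SE, edgeR adjusted p = 0.000138), was not called in PKI, -0.25 ± 0.20 (SE, edgeR adjusted p = 0.363), and the difference between them was -1.004 ± 0.23 (SE, edgeR adjusted p = 0.00732). Acss2 overlaps several annotated genes, among them Ggt7 and Acss2os on the other strand and Mipep-ps and Gm20637 on the same strand.

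Fasn, fatty acid synthase, fell in SmoM2 and in PKI. Fasn was at 503, 488 and 601 CPM in SmoM2 Con libraries 1 to 3 and 409, 347, 450.2 and 366 CPM in BCC libraries 1 to 4. Fasn measured 463, 529.6 and 485 CPM in Gnas-eKO Con libraries 1 to 3 and 432, 568, 239 and 445 CPM in BCC libraries 1 to 4. Fasn reached 644, 527 and 507 CPM in PKI Con libraries 1 to 3 and 365, 251, 289 and 295 CPM in BCC libraries 1 to 4. For Fasn, every BCC value lay below every Con value in SmoM2 and PKI, and the groups overlapped in Gnas-eKO. The changes of Fasn were -0.42 ± 0.11 (SE, edgeR adjusted p = 0.0147) in SmoM2 and -0.89 ± 0.13 (SE, edgeR adjusted p = 0.00119) in PKI, and the SmoM2 call was lost in the joint fit (edgeR adjusted p = 0.12). Acaca, which makes the malonyl-CoA that Fasn uses, was not called in any model, with -0.19, -0.03 and 0.13 in the same order of models as above. Elovl6 had changes of -0.50 ± 0.53 (SE, edgeR adjusted p = 0.541) in SmoM2 and -0.94 ± 0.44 (SE, edgeR adjusted p = 0.154) in PKI, neither called.

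The desaturases held the highest fold changes of the 35 genes. Fads2 and Fads1, the delta-6 and delta-5 desaturases that make long polyunsaturated fatty acids, were higher in tumours of SmoM2 and PKI. Fads2 was at 3.86, 4.76 and 12.7 CPM in SmoM2 Con libraries 1 to 3 and 123, 111, 72.3 and 76.7 CPM in BCC libraries 1 to 4. Fads2 measured 5.63, 6.59 and 8.79 CPM in Gnas-eKO Con libraries 1 to 3 and 84.2, 11.96, 8.77 and 77.5 CPM in BCC libraries 1 to 4. Fads2 reached 10.2, 5.75 and 4.08 CPM in PKI Con libraries 1 to 3 and 19.5, 16.4, 14.9 and 16.95 CPM in BCC libraries 1 to 4. For Fads2, every BCC value lay above every Con value in SmoM2 and PKI, and the groups overlapped in Gnas-eKO. Fads2 rose in SmoM2, 3.78 ± 0.50 (SE, edgeR adjusted p = 0.00253), and in PKI, 1.35 ± 0.27 (SE, edgeR adjusted p = 0.00593), while the change in Gnas-eKO, 2.72 ± 0.83 (SE, edgeR adjusted p = 0.129), was not called. Fads1 was at 12.4, 13.3 and 16.5 CPM in SmoM2 Con libraries 1 to 3 and 68.3, 63.8, 54.4 and 50.4 CPM in BCC libraries 1 to 4. Fads1 measured 14.4, 15.03 and 15.4 CPM in Gnas-eKO Con libraries 1 to 3 and 64.6, 17.3, 14.2 and 50.9 CPM in BCC libraries 1 to 4. Fads1 reached 13.4, 7.89 and 10.99 CPM in PKI Con libraries 1 to 3 and 24.03, 17.6, 17.9 and 17.8 CPM in BCC libraries 1 to 4. For Fads1, every BCC value lay above every Con value in SmoM2 and PKI, and the groups overlapped in Gnas-eKO. Fads1 likewise rose in SmoM2, 2.09 ± 0.14 (SE, edgeR adjusted p = 7.92e-06), and in PKI, 0.85 ± 0.19 (SE, edgeR adjusted p = 0.00784), with a change in Gnas-eKO of 1.31 ± 0.51 (SE, edgeR adjusted p = 0.21), not called. The effects in PKI were smaller than in SmoM2 for Fads1, -1.24 ± 0.25 (SE, edgeR adjusted p = 0.00276), and for Fads2, -2.44 ± 0.57 (SE, edgeR adjusted p = 0.00946). Fitted with all 21 libraries, the PKI calls of Fads1 and Fads2 were lost (edgeR adjusted p = 0.112 and 0.152), as were both differences between PKI and SmoM2.

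In Gnas-eKO the Fads genes split the tumours: libraries 1 and 4 were high and libraries 2 and 3 lay near Con for both genes. Ptch1 was at 933, 270.5, 315 and 827 CPM in Gnas-eKO BCC libraries 1 to 4, also higher in libraries 1 and 4. Gli1 did not follow this split, at 235, 9.65, 281 and 153 CPM in the same libraries, highest in library 3. The part of either in the Fads values was not tested. Without BCC library 2, edgeR called Fads2 higher (log2 fold change 3.04) and Mvk lower (-0.60) in Gnas-eKO, 2 of 35 where 11.8% of all genes were called. In the joint fit of all 21 libraries 4 members were called in Gnas-eKO, Mvk and Scd2 lower and Fads1 and Fads2 higher, where 14.9% of all genes were.

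The stearoyl-CoA desaturases differed from the Fads pair. Scd2 fell in SmoM2 and was not called in PKI. Scd2 was at 917, 956 and 1085 CPM in SmoM2 Con libraries 1 to 3 and 449, 463, 680.2 and 726 CPM in BCC libraries 1 to 4. Scd2 measured 721, 927 and 805 CPM in Gnas-eKO Con libraries 1 to 3 and 567, 678, 515 and 597 CPM in BCC libraries 1 to 4. Scd2 reached 743, 749 and 638 CPM in PKI Con libraries 1 to 3 and 658, 651, 661 and 780.5 CPM in BCC libraries 1 to 4. For Scd2, every BCC value lay below every Con value in SmoM2 and Gnas-eKO, and the groups overlapped in PKI. Its changes were -0.75 ± 0.18 (SE, edgeR adjusted p = 0.0183) in SmoM2 and -0.03 ± 0.09 (SE, edgeR adjusted p = 0.804) in PKI, with a difference of 0.72 ± 0.22 (SE, edgeR adjusted p = 0.0264). The SmoM2 call was lost without Con library 3, and the difference without Con library 3 of either model. Scd1 was not called in any model by this test, and its PKI change was -1.04 ± 0.46 (SE, edgeR adjusted p = 0.134). Scd1 gave 5297, 2727 and 2801 CPM in PKI Con libraries 1 to 3 and 3021, 1824, 972 and 1129 CPM in BCC libraries 1 to 4. Con library 1 and BCC library 1 were the highest of their groups. The joint fit called Scd1 lower in PKI (-1.06, edgeR adjusted p = 0.0322).

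Per kilobase of exon in GENCODE M21, Scd1, the main stearoyl-CoA desaturase of skin, had the highest level of the 35 in all 3 Con groups, at 502 ± 175, 585 ± 58.6 and 738 ± 299 CPM per kb (SD, n = 3), in the order SmoM2, Gnas-eKO, PKI. Elovl6, a fatty acid elongase, came next at 189 ± 81.4, 187 ± 22 and 196 ± 74.6 CPM per kb. Hmgcs1, which makes HMG-CoA, was the most abundant sterol enzyme at 170.3 ± 11.1, 167 ± 5.12 and 162 ± 5.41 CPM per kb, and in all 3 it lay within the SD of Elovl6. Fads2 was the lowest in all 3 Con groups, at 2.15 ± 1.47, 2.13 ± 0.492 and 2.03 ± 0.966 CPM per kb, and it lay within its own SD of Tm7sf2, a low sterol reductase gene, in each of them. The 4 desaturase genes lie in pairs on chromosome 19: on mm10, Fads2 at chr19:10062765-10101746 (minus strand) and Fads1 at chr19:10182888-10196877 (plus strand), then Scd2 at chr19:44293674-44306864 (plus strand) and Scd1 at chr19:44394455-44407879 (minus strand). Scd1 and Scd2 have similar coding sequences, and how reads that match both were counted is not stated.

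Sterol and fatty acid genes were set against each other as the mean log2 CPM of each list in each library, with no test. In PKI the sterol mean was 6.65 to 6.82 in Con and 6.13 to 6.40 in BCC, which do not overlap, and the change in group means was -0.50. The PKI fatty acid mean was 7.26 to 7.71 in Con and 6.91 to 7.48 in BCC, a change of -0.28 with overlap. In SmoM2 the changes were -0.18 for the sterol mean and 0.43 for the fatty acid mean, and in Gnas-eKO -0.04 and 0.24, all with overlap. The sterol mean minus the fatty acid mean thus changed by -0.22 in PKI, -0.28 in Gnas-eKO and -0.60 in SmoM2, and its groups did not overlap in SmoM2. With 1 library left out, this change lay between -0.53 (without BCC library 3) and -0.10 (without BCC library 1) in Gnas-eKO, and between -0.40 (without Con library 1) and -0.09 (without Con library 2) in PKI. This difference rests on Fads1 and Fads2: with the other 8 fatty acid genes it changed by 0.14 in PKI, 0.043 in Gnas-eKO and 0.036 in SmoM2, the opposite sign in each model. The 8 genes alone changed by -0.64 in PKI, -0.09 in Gnas-eKO and -0.21 in SmoM2, so the mean over all 10 and the median over them differ in sign in SmoM2 and Gnas-eKO.

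**Figure D3:**
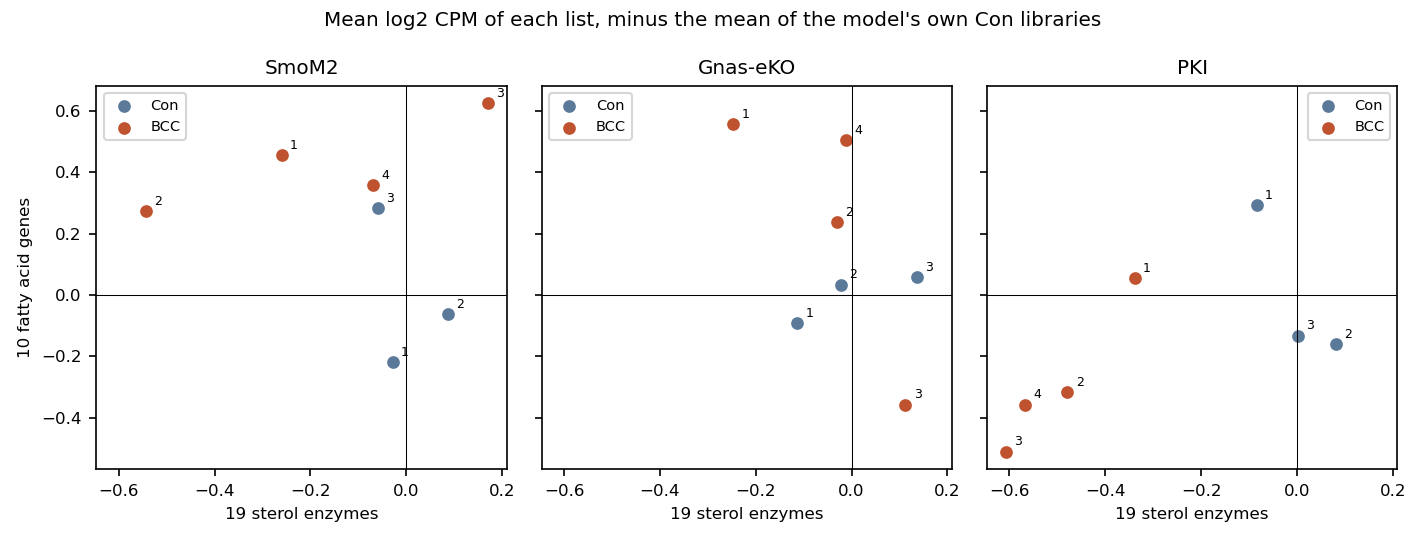
Mean log2 CPM of the 19 sterol enzymes (x axis) and the 10 fatty acid genes (y axis) in each library, minus the mean of the Con libraries of the same model, with the replicate number beside each point. PKI BCC libraries all lie left of the PKI Con libraries, SmoM2 BCC libraries lie higher than 2 of the 3 SmoM2 Con libraries, and Gnas-eKO BCC library 3 lies below the others.

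Markers of other cells moved beside these genes. The counts of markers called stand against 18.7% of all genes higher and 15.8% lower in PKI, 16.2% higher and 13.5% lower in SmoM2 and 1.63% called in Gnas-eKO. Of 10 sebocyte markers, Mc5r, Dgat2 and Mgst1 fell in PKI and Krt79 rose, and 9 of the 10 had a negative sign there, with a median log2 fold change of -0.89. The sum of the 10 was 3073, 2479 and 2463 CPM in PKI Con libraries 1 to 3 and 3588, 2643, 2209.8 and 2749 CPM in BCC libraries 1 to 4, and the groups overlapped. Krt79 held the largest part of the sum, and was at 1328 to 1527 CPM in Con and 1771 to 2609 CPM in BCC of PKI. In SmoM2, where 1 of the 10 fell, the sums were 2219 to 2293 CPM in Con and 1882 to 3231 CPM in BCC. In Gnas-eKO, where none was called, the sums were 2294 to 2503 CPM in Con and 2537 to 3598 CPM in BCC, without overlap. The sum was highest in Con library 1 and BCC library 1 of PKI, the libraries in which Scd1 and Elovl6 were also highest. In SmoM2 Con the sum, Scd1 and Elovl6 were likewise highest together, in library 3. In SmoM2 BCC and Gnas-eKO Con the sum and Elovl6 were highest in library 3, but Scd1 in libraries 1 and 2 in that order. In Gnas-eKO BCC the sum was highest in library 1 (3598 CPM), and Scd1 and Elovl6 in library 2. Leukocyte markers rose in PKI for 6 of 7 genes, with sums of 23.1 to 33.6 CPM in Con and 69.5 to 98.3 CPM in BCC, markers of dividing cells for 6 of 6, with sums of 475 to 531 CPM in Con and 855 to 1017 CPM in BCC, and markers of hair shaft and sheath for 5 of 6, with sums of 45.4 to 268 CPM in Con and 1749.9 to 2215 CPM in BCC. Melanocyte markers fell in PKI for 4 of 5 genes, with sums of 153 to 201 CPM in Con and 72.2 to 117 CPM in BCC, and in SmoM2 for 2 of 5, with sums of 115 to 204 and 109 to 159 CPM. Of 5 suprabasal keratinocyte markers 3 fell in SmoM2, where the sums were 25275 to 36589 CPM in Con and 13459.7 to 28022 CPM in BCC, and in PKI 1 rose and 1 fell. Fibroblast markers summed to 17.2 to 39.8 CPM in SmoM2 Con and 387 to 525 CPM in SmoM2 BCC, with 2 of 6 called, to 15.9 to 27.4 and 94.3 to 579 CPM in Gnas-eKO, with 1 of 6 called and the highest median log2 fold change of the 3 models (3.07), and to 15.8 to 43.5 and 84.4 to 145 CPM in PKI, with 3 of 6 called. The 4 endothelial markers summed to 6.47 CPM or less and the 5 adipocyte markers in the table to 4.10 CPM or less in every library. The part of these cells in the changes of the sterol and fatty acid genes was not tested.

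**Figure D4:**
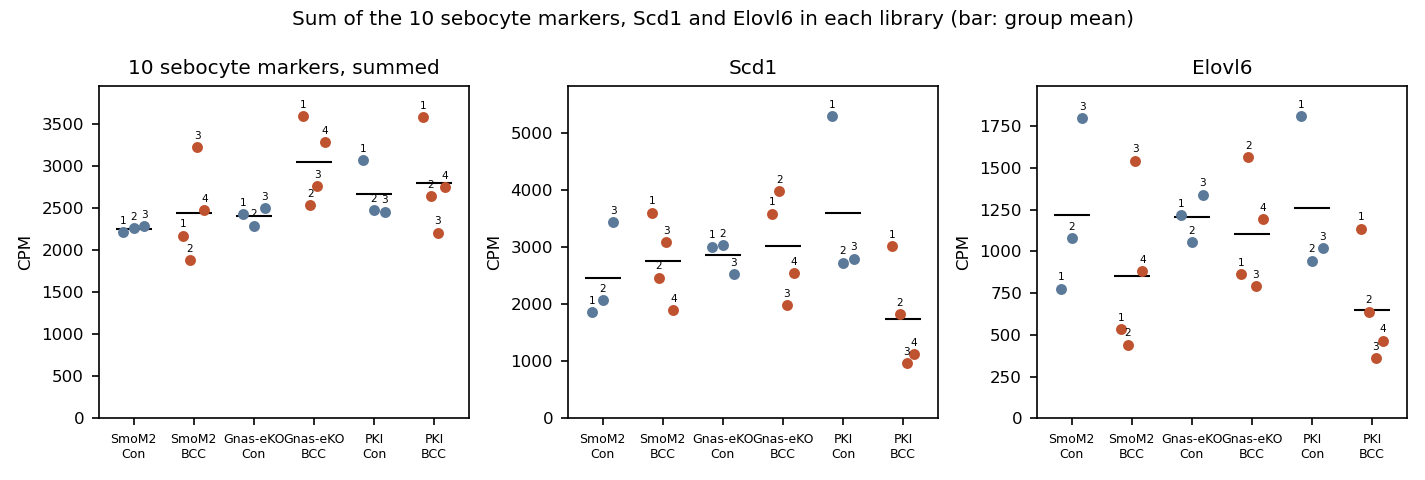
Summed CPM of the 10 sebocyte markers and CPM of Scd1 and Elovl6 in each library (points, with the replicate number above, bar at the group mean). In PKI all 3 quantities are highest in library 1 of Con and in library 1 of BCC, and the sums range over 2463 to 3073 CPM in Con and 2209.8 to 3588 CPM in BCC. All 3 are highest in library 3 of SmoM2 Con, while in SmoM2 BCC and both Gnas-eKO groups the highest library is not the same for all 3.

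Other genes of both pathways were counted over lists written from their known roles. Of 17 tested genes of sterol processing and transport, 5 rose and 3 fell in SmoM2, 1 rose in Gnas-eKO, and 3 rose and 2 fell in PKI, where 29.7%, 1.63% and 34.5% of all genes were called in that order of models. The share of the list called was above that of all genes in SmoM2 and below it in PKI. Scarb1, the HDL receptor, rose in all 3, by 2.13 ± 0.16 (SE, edgeR adjusted p = 1.43e-05), 1.81 ± 0.24 (SE, edgeR adjusted p = 0.0202) and 2.14 ± 0.17 (SE, edgeR adjusted p = 9.42e-05) in the order SmoM2, Gnas-eKO, PKI. Cyp27a1, a sterol hydroxylase, had the largest change in SmoM2, 3.35 ± 0.12 (SE, edgeR adjusted p = 1.94e-07), and was at -0.16 in PKI, not called. Cyp7b1, an oxysterol hydroxylase, had the largest change in PKI, 4.39 ± 0.63 (SE, edgeR adjusted p = 0.00226), and rose in SmoM2, 1.28 ± 0.41 (SE, edgeR adjusted p = 0.0417). Of 20 other fatty acid genes tested, 4 fell in SmoM2, none was called in Gnas-eKO, and 8 fell and 1 rose in PKI. Against the same shares of all genes, this list's was below in SmoM2 and above in PKI. Acacb, the acetyl-CoA carboxylase at mitochondria, had the largest fall in PKI among those called, -1.37 ± 0.23 (SE, edgeR adjusted p = 0.00329). Scd3, a further stearoyl-CoA desaturase, had a larger change that was not called, -2.52 ± 0.79 (SE, edgeR adjusted p = 0.0544). In SmoM2 Acsl1, an acyl-CoA synthetase, had the largest fall, -1.01 ± 0.13 (SE, edgeR adjusted p = 0.000527).

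A further split ran through every group. Xist, the RNA transcribed from the inactive X chromosome of female cells, was at 514 CPM or more in 10 libraries and at 0.302 CPM or less in 11, and both kinds were present in each of the 6 groups. Of the 10, those of PKI BCC were at 514 and 543 CPM of Xist and the others at 869 CPM or more. Of the 19 sterol enzymes 6 (Acat2, Fdps, Lss, Cyp51, Hsd17b7 and Ebp) were higher in every low-Xist library than in every high-Xist library of the same group in at least 5 of the 6 groups, where 2.76% of all 17695 genes were. For 5 of the 6 the exception was PKI BCC: there the order was reversed for Acat2, Fdps, Cyp51 and Ebp and overlapped for Lss. For Hsd17b7 it was Gnas-eKO BCC, which overlapped. This order was seen after the values were known and was not tested. Hsd17b7 was at 142 and 153 CPM in the low-Xist and 113 CPM in the high-Xist libraries of SmoM2 Con. In SmoM2 BCC Hsd17b7 was at 239 and 146 against 96.7 and 80.7 CPM. In Gnas-eKO Con it was at 171 against 78.8 and 100.4 CPM, and in Gnas-eKO BCC at 72.5 and 134 against 67.8 and 83.3 CPM. In PKI Con it was at 199.7 and 204 against 93.5 CPM, and in PKI BCC at 98.7 and 97.98 against 65.5 and 62.04 CPM. In PKI tumours Acat2 was instead at 70.4 and 70.3 CPM in the low-Xist and 90.4 and 81.8 CPM in the high-Xist libraries. Scd1 and Soat1 had the reverse order in 5 of the 6 groups, where 2.91% of all genes had it. With Xist as a covariate, Hsd17b7 still fell in PKI (log2 fold change -0.86), and 24 members were called there in place of 19, where 38.8% of all genes were, with Scd1 (-1.24), Elovl6 (-1.12) and Me1 (-0.33) added among the fatty acid genes and Fdps (-0.29) and Fdft1 (-0.40) among the sterol enzymes. In SmoM2 the covariate added Acat2, higher (0.39).

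**Figure D5:**
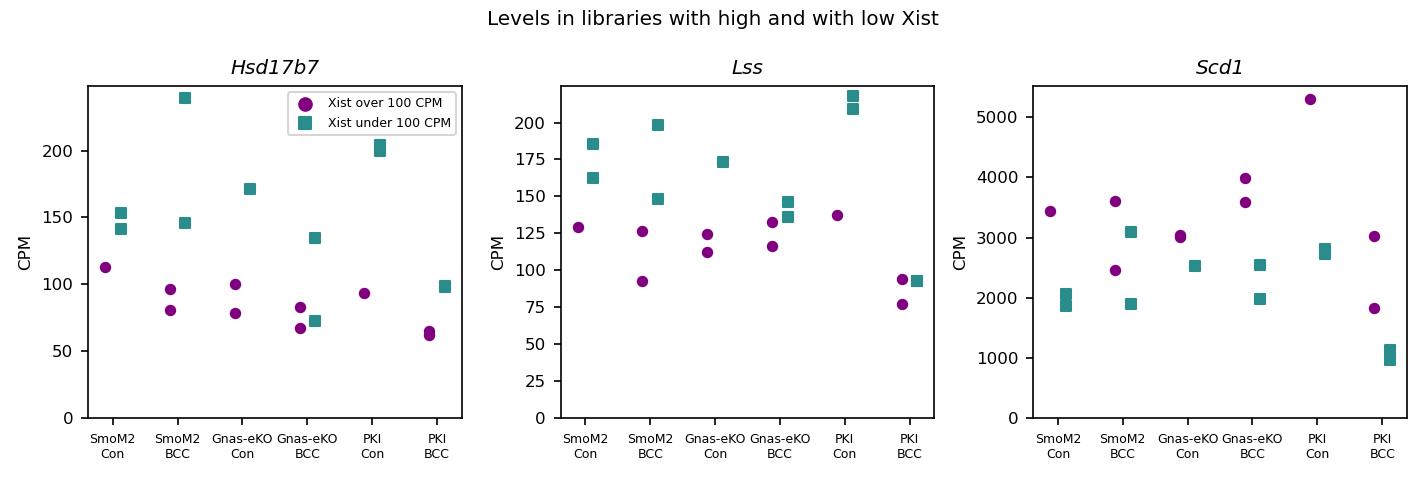
CPM of Hsd17b7, Lss and Scd1 in each library by model and group, with libraries of high Xist (over 100 CPM, circles) and low Xist (squares) side by side. Squares lie above circles for Hsd17b7 and Lss in 5 of 6 groups and below them for Scd1 in 5 of 6 groups, and the exceptions are Gnas-eKO BCC for Hsd17b7, PKI BCC for Lss and SmoM2 BCC for Scd1.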

How the data were processed

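The authors deposited estimated counts per gene without normalization, of which 33.1% are not whole. Per the submitters' processing notes, bcl2fastq 2.20, cutadapt 1.18, STAR 2.7.0f, Partek and the build mm10 were used. The counting tool, annotation and strand setting are not given in the sources used here. The authors' normalized table was not used. These estimated counts were rounded, and R 4.3.3 with edgeR 4.0.16 (filterByExpr, TMM, robust quasi-likelihood) compared BCC against Con in the 7 libraries of a model, and interactions over 14 libraries, with Benjamini-Hochberg adjustment over all genes tested. SE is the size of the log2 fold change over the root of the F statistic. CPM used TMM over all 21 libraries, and list means used log2 CPM with a prior count of 2. Alternatives were DESeq2 1.42.0, its size factors, no filter, a joint fit, a replicate block, Xist as a covariate, other priors and each library left out. The headers name 1 animal per library, and each of the 27 pairs of replicates differed beyond sampling noise (lowest chi-square per degree of freedom 8.93). At this depth 3 counts are at most 0.180 CPM, which covers counting error only. Scripts were tested on simulated data. Values per library are given for members called in opposite directions, called in an interaction, or most changed in their role, plus a few chosen after their values were seen. Members, lists, roles and this rule were chosen with earlier results of these data known. Coordinates are those of mm10 with ends 1 base below the deposited ones, after GENCODE M21.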

Additional observations from a re-analysis of the deposited data

Results flagged for a closer look

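In 11 of the 105 member and group pairs with 4 libraries, 1 BCC library lay far from the other 3 by Dixon's criterion. At the 95% level this criterion singles out about 5% of groups by chance. Gnas-eKO BCC library 3 accounted for 5 of the 11. In it Idi1 was at 649 CPM against 336 to 359 CPM in the other 3, and Tm7sf2 at 25.3 CPM against 11.4 to 12.8 CPM. The same library was low for Scap at 150.3 CPM against 177 to 179 CPM, for Acly at 247 CPM against 315 to 324 CPM and for Acss2 at 28.03 CPM against 35.7 to 36.5 CPM. Dhcr7 in Gnas-eKO BCC library 2 was at 124 CPM against 93.9 to 98.1 CPM. In SmoM2 BCC, Mvk in library 2 was at 40.4 CPM against 51.5 to 53.05 CPM and Acss2 in library 3 at 41.3 CPM against 25.9 to 27.9 CPM. In PKI BCC, Lss in library 2 was at 77.3 CPM against 92.9 to 94.5 CPM, Scd2 in library 4 at 780.5 CPM against 651 to 661 CPM and Fads1 in library 1 at 24.03 CPM against 17.6 to 17.9 CPM.

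The BCC effect differed between models in 16 member and model pairs by edgeR's interaction test at an adjusted p under 0.05. The PKI effect was below the SmoM2 effect, as a difference of log2 fold changes, for Acat2 (-0.98), Idi1 (-1.32), Ggps1 (-0.55), Tm7sf2 (-0.66), Acss2 (-0.98), Me1 (-1.004), Fads1 (-1.24) and Fads2 (-2.44), and above it for Scd2 (0.72). It was below the Gnas-eKO effect for Mvd (-0.80), Idi1 (-1.21), Lss (-1.03), Tm7sf2 (-1.19), Insig1 (-0.72), Stard4 (-0.80) and Acss2 (-1.26). Since each model is its own batch and day, these differences cannot be told apart from batch and day.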

How the results depend on the processing

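With each library left out in turn, the sterol enzymes called numbered 4 to 7 in SmoM2, 0 to 1 in Gnas-eKO and 9 to 14 in PKI, and the fatty acid genes 4 to 7, 0 to 1 and 5 to 7. Sterol medians (log2) ranged over -0.26 to 0.01, -0.12 to 0.03 and -0.55 to -0.34, and fatty acid medians over -0.24 to -0.16, -0.11 to 0.08 and -0.53 to -0.32. SmoM2 BCC library 3 gave the highest SmoM2 counts when left out, 7 sterol enzymes and 7 fatty acid genes. The change of the sterol minus fatty acid mean ranged over -0.77 to -0.51, -0.53 to -0.10 and -0.40 to -0.09, and with Fads1 and Fads2 taken off the list it reversed to 0.036, 0.043 and 0.14; both alternatives were chosen after seeing the data. Members whose effects differed numbered 0 in each fit for Gnas-eKO against SmoM2, 7 to 13 for PKI against SmoM2 and 2 to 11 for PKI against Gnas-eKO, the last with 2 without Gnas-eKO Con library 1 and 11 without Gnas-eKO BCC library 3. The share of all genes that differed in these fits was not counted, so whether the ranges follow it is not known.

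In Gnas-eKO, DESeq2 called 2 fatty acid genes, and the joint fit called 1 sterol enzyme and 3 fatty acid genes. With Xist as a covariate 8 fatty acid genes were called in PKI. The joint fit called 1 member, Stard4, between Gnas-eKO and SmoM2. With replicate number as a block, 1 member was called for Gnas-eKO against SmoM2, 12 for PKI against SmoM2 and 4 for PKI against Gnas-eKO, in place of 0, 9 and 7. The share of all genes called with the block was not counted, so these counts cannot be set against it. The block ended the calls of Ggps1 in SmoM2, of Msmo1 in PKI, of Acat2 and Fads2 for PKI against SmoM2 and of Lss, Tm7sf2 and Acss2 for PKI against Gnas-eKO, and added Sc5d in SmoM2, Fdft1, Elovl6 and Scd1 in PKI, Stard4 for Gnas-eKO against SmoM2, and Hmgcs1, Sc5d, Stard4, Fasn and Scd1 for PKI against SmoM2. The numbers do not pair the samples: deviations of same-numbered libraries correlated at -0.11 to -0.08 in SmoM2, 0.02 to 0.15 in Gnas-eKO and -0.05 to 0.24 in PKI. Over all alternatives, 7 of the 11 calls in SmoM2, 14 of the 19 in PKI, 4 of the 9 for PKI against SmoM2 and 0 of the 7 for PKI against Gnas-eKO were made every time. The causes were not tested.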

Other observations

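Genes that burn fatty acids were counted as well. Of 13 genes of fatty acid oxidation, 1 fell in SmoM2, none was called in Gnas-eKO, and 5 fell and 2 rose in PKI (edgeR, adjusted p under 0.05), where 29.7%, 1.63% and 34.5% of all genes were called in that order. The share called was below that of all genes in SmoM2 and above it in PKI, where 15.8% of all genes fell and 18.7% rose. Ppara, the nuclear receptor that drives this programme in liver, fell in PKI, -1.55 ± 0.33 (SE, edgeR adjusted p = 0.00694), and Ehhadh, a peroxisomal oxidation enzyme, fell by 0.92 ± 0.17 (SE, edgeR adjusted p = 0.0038). Ppard, a related receptor, rose in PKI, 0.53 ± 0.10 (SE, edgeR adjusted p = 0.00293), as did Acadl, a mitochondrial dehydrogenase, 0.65 ± 0.17 (SE, edgeR adjusted p = 0.016). Of 6 genes of cholesterol efflux and its receptors, 1 was called in SmoM2, where the efflux transporter Abca1 rose, 0.58 ± 0.17 (SE, edgeR adjusted p = 0.0325), none in Gnas-eKO, and 1 in PKI, where Nr1h2 fell, -0.30 ± 0.09 (SE, edgeR adjusted p = 0.0312); each share is below that of all genes called in the model.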
